A study of Mus musculus with 20 samples.

Results

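The genes described here were 10 genes of hepatic stellate cells and of the extracellular matrix, taken as the rows of the count table whose Ensembl identifiers matched the symbols Lrat, Reln, Ecm1, Des, Pdgfrb, Dcn, Col1a1, Col1a2, Col3a1 and Col14a1. Each symbol matched 1 row, so the set held 10 of the 53028 genes of the table, all with values in the 20 libraries. The libraries came from the livers of 10 male C57BL/6J mice that had been injected intraperitoneally with locked nucleic acids (LNAs, stabilised antisense oligonucleotides) with 3 doses of 3 mg/kg, one every other day from 8 weeks of age, and were killed 2 days after the last dose. Control mice 1, 2, 3, 8 and 9 received an LNA directed at GFP, a sequence that mice lack, and mice 4, 6, 10, 11 and 12 an LNA directed at SNORA73, a pair of H/ACA small nucleolar RNAs from introns of Snhg3. The labels name no genetic change in these mice, and according to the methods for liver polysomes, which give a slightly older age, they were also injected with cycloheximide, which stalls ribosomes, shortly before the livers were taken. The labels write the target as Snora37, whereas the design text of the study names SNORA73. From each liver 1 library of total RNA and 1 of RNA from polysome fractions was made after selection of polyadenylated RNA, which gave 4 groups of 5 libraries. According to the methods, total RNA was purified on columns with DNase digestion, and polysome RNA by precipitation, heparinase treatment and a clean-up step. Ratios of polysome to total RNA also hold this difference in preparation, and its part in them was not tested.

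Hepatic stellate cells lie between the hepatocytes and the sinusoidal endothelium and store vitamin A as retinyl esters. When the liver is injured they lose this store and turn into myofibroblasts, which secrete fibrillar collagen and form the scar of liver fibrosis. Polysomes are messenger RNAs that carry several ribosomes, so that the level of a messenger in polysome RNA relative to total RNA is used as a measure of how much of it is being translated. The whole liver was measured, and in such bulk samples fewer stellate cells cannot be told apart from less of a messenger in each cell.

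The total of a library ranged from 20005389 to 42023390 counts (median 27780913.5) in total RNA and from 14852951 to 33824659 (median 20441336) in polysome RNA. Levels are given as CPM, a count scaled to a common library total after TMM normalization over the 20 libraries, and were compared for 1 gene between libraries, never between genes. Snora73a and Snora73b, which carry no poly(A) tail, had at most 4 counts in any library of either group, so these libraries hold no check of the knockdown. The study left out 1 mouse of each LNA group without naming it. Mice 9 and 10 were taken to be those mice as an alternative, and the values without them are given beside the results that they touch. The labels do not name the mice left out, so this choice may be wrong. Mouse 9 had the highest level of each of the 4 collagen genes in total RNA. Leaving it out therefore lowers the GFP LNA mean of these genes there.

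Of the genes that mark the stellate cell, Lrat (ENSMUSG00000028003, chr3:82892582-82903974) encodes lecithin retinol acyltransferase, which makes the stored retinyl esters. Reln (ENSMUSG00000042453, chr5:21884454-22344705) encodes the secreted glycoprotein reelin, and Ecm1 (ENSMUSG00000028108, chr3:95734147-95739876) the secreted extracellular matrix protein 1. Des (ENSMUSG00000026208, chr1:75360292-75368579) encodes the intermediate filament protein desmin and Pdgfrb (ENSMUSG00000024620) the receptor tyrosine kinase for platelet-derived growth factor BB. The matrix genes were Dcn (ENSMUSG00000019929, chr10:97479500-97518163), which encodes decorin, a small proteoglycan that binds collagen fibrils, and 4 collagen chains. Col1a1 (ENSMUSG00000001506, chr11:94936224-94953042) and Col1a2 (ENSMUSG00000029661, chr6:4505618-4541543) encode both chains of type I collagen. Col3a1 (ENSMUSG00000026043, chr1:45311538-45349706) encodes type III collagen, and Col14a1 (ENSMUSG00000022371, chr15:55307644-55520803) type XIV collagen, which lies along fibrils. Positions are those of RefSeq on GRCm38.p6.

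The 4 collagen genes varied together from mouse to mouse in total RNA, and the promoters of those among them with an entry in the RefSeq promoter table are therefore shown. An entry was found for 6 of the 10 genes (Lrat, Reln, Ecm1, Des, Col1a2 and Col3a1). The 250 bases before the annotated start are printed 5′ to 3′ on the plus strand of GRCm38.p6, for Col1a2 at chr6:4505368-4505617 and for Col3a1 at chr1:45311288-45311537. Capitals mark 3 short motifs, the CCAAT box, the GC box with the letters GGGCGG and the TATA box with the letters TATAAA. They were searched on both strands, and their matches do not overlap one another.
Col1a2: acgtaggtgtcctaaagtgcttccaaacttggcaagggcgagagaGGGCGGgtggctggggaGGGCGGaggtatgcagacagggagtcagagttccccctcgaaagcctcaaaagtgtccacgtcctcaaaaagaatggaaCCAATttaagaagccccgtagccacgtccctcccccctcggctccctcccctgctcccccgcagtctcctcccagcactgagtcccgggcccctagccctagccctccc
Col3a1: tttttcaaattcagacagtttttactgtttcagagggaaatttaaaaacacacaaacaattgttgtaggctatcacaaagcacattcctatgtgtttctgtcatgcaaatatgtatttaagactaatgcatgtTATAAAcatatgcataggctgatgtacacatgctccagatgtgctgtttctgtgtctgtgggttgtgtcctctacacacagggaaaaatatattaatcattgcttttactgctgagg
In Col1a2, the CCAAT box began at position -109 and the GC box at -205 and -188, counted back from the annotated start. In Col3a1, the TATA box letters began at -117. Over the 250 bases before the start of all 32851 entries, the CCAAT letters were held by 33.8%, those of the GC box by 32.7% and those of the TATA box by 12.4%, and the matches are a description of the letters only. The windows of these collagens shared none of the 3 motifs.

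The first question was whether the SNORA73 LNA moved these genes in total RNA or in polysome RNA. None of the 10 genes passed the test in either RNA. By edgeR's quasi-likelihood test, 0 of 10 had a Benjamini-Hochberg adjusted p under 0.05, and 0 of 10 had an unadjusted p under 0.05, in total RNA and in polysome RNA alike. limma-voom and DESeq2 also called 0 of 10 in each. Of 13195 genes tested in total RNA edgeR called 0.0303%, and of 13060 in polysome RNA 0.0153%, so a count of 0 lay near the background. Of the same genes, limma-voom called 5 higher and 0 lower in total RNA and 2 and 0 in polysome RNA. DESeq2 called more of them, 47 higher and 21 lower in total RNA and 232 and 50 in polysome RNA. Values overlapped between the LNA groups for all 10 genes in both RNAs, whereas they did not overlap for 1.84% (total RNA) and 3.23% (polysome RNA) of all genes.

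**Figure D1:**
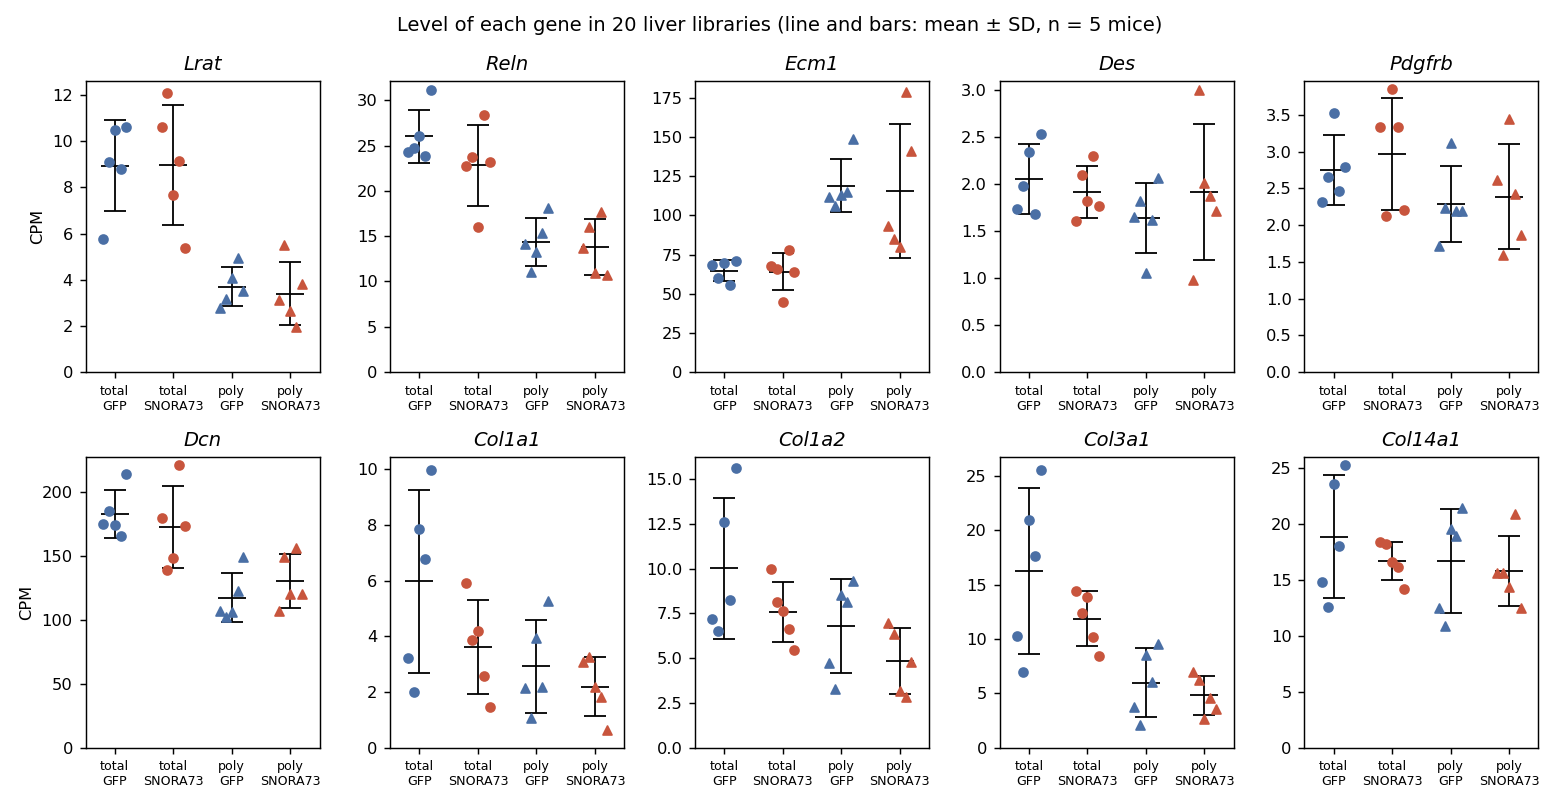
Level of each of the 10 genes (CPM, vertical axis, from 0) in every library, in total RNA (circles) and polysome RNA (triangles) of GFP LNA mice (blue) and SNORA73 LNA mice (red), with the mean and SD of 5 mice. In each RNA the points of both LNA groups overlap for every gene, while those of Lrat, Reln and Col3a1 sit mostly lower and those of Ecm1 higher in polysome RNA.

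The stellate cell markers differed little between the LNA groups. Lrat in total RNA measured 5.76, 9.09, 10.5, 8.79 and 10.6 CPM in GFP LNA mice 1, 2, 3, 8 and 9 and 10.6, 12.1, 7.69, 9.16 and 5.37 CPM in SNORA73 LNA mice 4, 6, 10, 11 and 12. The lowest values, those of mice 1 and 12, came from different groups, and the log2 fold change was 0.01 (SE 0.22, adjusted p = 0.997). Reln in total RNA was 24.3, 24.7, 26.1, 23.8 and 31.1 CPM in the GFP LNA mice and 22.7, 23.7, 16, 28.4 and 23.2 CPM in the SNORA73 LNA mice, both in the same order of mice as above. Mouse 9 was the highest and mouse 10 the lowest, and the log2 fold change of -0.19 (SE 0.14, adjusted p = 0.753) became -0.01 without them. Ecm1 measured 64.8 ± 6.70 CPM (SD, n = 5) with GFP LNA and 64.0 ± 11.9 CPM with SNORA73 LNA in total RNA. Des, at 2.06 ± 0.373 and 1.92 ± 0.277 CPM, and Pdgfrb, at 2.75 ± 0.472 and 2.97 ± 0.760 CPM, were likewise closer between the groups than the spread within them. The interval of 2 SE about the difference in total RNA ran from -0.42 to 0.44 for Lrat, from -0.46 to 0.08 for Reln, from -0.29 to 0.25 for Ecm1, from -0.45 to 0.25 for Des and from -0.30 to 0.49 for Pdgfrb on the log2 scale.

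The matrix genes had mean levels that were lower with SNORA73 LNA in total RNA, but within the spread between mice. Col1a1 in total RNA was 3.21, 2.01, 7.86, 6.78 and 9.98 CPM in GFP LNA mice 1, 2, 3, 8 and 9, and 5.91, 3.88, 4.20, 2.56 and 1.48 CPM in SNORA73 LNA mice 4, 6, 10, 11 and 12. The 3 highest values were in the GFP LNA group, while GFP LNA mouse 2 lay below all but 1 of the SNORA73 LNA mice. Its log2 fold change was -0.73 (SE 0.44, adjusted p = 0.704), with 2 SE reaching from -1.60 to 0.14, and it was -0.53 without mice 9 and 10. With 1 mouse left out it lay between -0.98, without mouse 4, and -0.48, without mouse 9. Col3a1 in total RNA was 10.3, 6.96, 21.0, 17.6 and 25.6 CPM in the GFP LNA mice and 14.4, 12.4, 13.9, 10.2 and 8.44 CPM in the SNORA73 LNA mice. The GFP LNA mice included both the lowest and the highest value, and the log2 fold change was -0.46 (SE 0.30, adjusted p = 0.736), against -0.24 without mouse 9 and -0.29 without mice 9 and 10. Col1a2 in total RNA was 7.17, 6.49, 12.6, 8.22 and 15.6 CPM with GFP LNA and 9.99, 8.12, 7.64, 6.65 and 5.45 CPM with SNORA73 LNA. Its values also overlapped, with a log2 fold change of -0.41 (SE 0.25, adjusted p = 0.712) that became -0.20 without mice 9 and 10. The log2 fold change of Col14a1 was -0.18 (SE 0.18) and that of Dcn -0.09 (SE 0.13), with 2 SE spanning -0.53 to 0.18 and -0.35 to 0.17.

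In polysome RNA no difference between the LNA groups was larger than 0.50 on the log2 scale. Col1a2 gave the largest of them, with 4.73, 3.25, 8.51, 8.13 and 9.31 CPM in the GFP LNA mice and 6.95, 6.34, 3.17, 2.85 and 4.80 CPM in the SNORA73 LNA mice. These values overlapped, and the log2 fold change was -0.50 (SE 0.32, adjusted p = 0.536) with all mice and -0.23 without mice 9 and 10. The log2 fold change of Col1a1 in polysome RNA was -0.41 (SE 0.43) and became -0.09 without these mice. That of Col3a1 was -0.32 (SE 0.38) and turned to 0.07 without them. Des at 0.23 (SE 0.30), Dcn at 0.15 (SE 0.15) and Pdgfrb at 0.05 (SE 0.26) lay above 0. The value of Des ranged from 0.019, without mouse 6, to 0.40, without mouse 4, and that of Dcn was 0.28 without mice 9 and 10. Those of Lrat, Reln, Ecm1 and Col14a1 lay between -0.12 and -0.04. Over the 10 genes the median log2 fold change was -0.14 (total) and -0.07 (polysome), beside 0.01 and -0.01 over all genes tested. With library totals in place of TMM the median of all genes was -0.14 (total) and -0.17 (polysome), and still none of the 10 was called. The median of the 10 genes was then -0.28 (total) and -0.22 (polysome). All 10 lay below 0 in total RNA, where 1 had an unadjusted p under 0.05 by edgeR, and 9 in polysome RNA. The TMM factors of the total RNA libraries were 1.01 to 1.06 with GFP LNA and 0.877 to 0.982 with SNORA73 LNA.

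**Figure D2:**
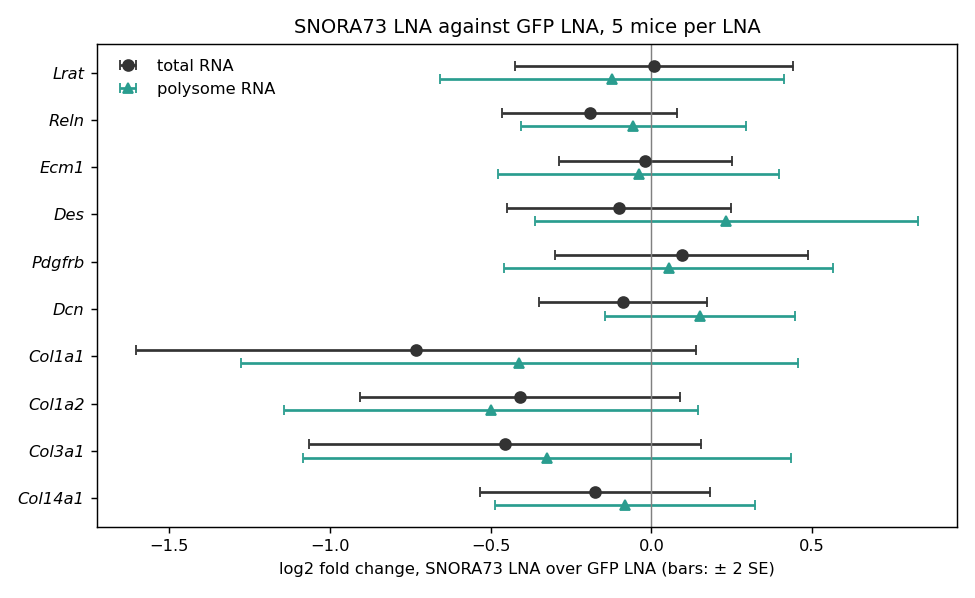
Log2 fold change of SNORA73 LNA over GFP LNA (horizontal axis, bars of 2 SE) for each gene in total RNA (circles) and polysome RNA (triangles), 5 mice per LNA. All 20 bars cross 0, and the widest belong to Col1a1, at -0.73 in total and -0.41 in polysome RNA.

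The other genes of these pathways, from lists that do not count the 10 genes, did not pass the test either. In total and in polysome RNA, 0 of 17 other markers of quiescent stellate cells passed in either direction, as did 0 of 18 and 0 of 17 genes of activated stellate cells and myofibroblasts, 0 of 15 other collagen chains in each RNA, 0 of 17 genes of collagen maturation and cross-linking in each RNA, 0 of 16 and 0 of 14 genes of the TGF-beta pathway, 0 of 5 and 0 of 4 genes of the PDGF pathway, and 0 of 13 genes of retinoid handling in each RNA. The median log2 fold change of the activated stellate cell list was -0.24 in total and -0.27 in polysome RNA, that of the quiescent list -0.18 and -0.17, and that of the other collagen chains 0.02 and 0.13. Acta2, the smooth muscle actin that defines the myofibroblast, was at 0.480 to 1.53 CPM in total RNA. Timp1, an inhibitor of matrix proteases that activated cells release, reached at most 0.254 CPM there. Both belong to the activated list, but other genes of it were not low. In total RNA its 22 genes summed to 582 to 696 CPM (GFP LNA) and 624 to 920 CPM (SNORA73 LNA). Fn1, another gene of this list, measured 441 to 794 CPM there. Every gene of the quiescent list, and every gene of the activated list, had counts in each of the 4 groups of libraries. Of the 25 genes of the quiescent list, 6 are among the 10 genes described here. The summed level of the quiescent list in total RNA was 435 to 615 CPM with GFP LNA and 406 to 1440 CPM with SNORA73 LNA. The top of the latter range was mouse 10, in which Steap4, a metalloreductase gene of this list that hepatocytes also express, measured 1120 CPM, against 40.3 to 134 CPM in the other total RNA libraries.

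Markers of the other cell types of the liver gave summed levels that mostly overlapped between the LNA groups. The exception was the list of 10 sinusoidal endothelial genes, whose sum in total RNA was 178 to 207 CPM with GFP LNA and 210 to 239 CPM with SNORA73 LNA, and in polysome RNA 152 to 170 CPM and 178 to 205 CPM. None of the 10 was at 0 in every library of a group, and 1 of 10, Stab2, passed the test in total RNA with a log2 fold change of 1.06 (SE 0.15, adjusted p = 0.0498). Portal fibroblast genes, which mark the other collagen-producing cell of the normal liver, summed to 16.8 to 26.5 CPM with GFP LNA and 14.9 to 24.9 CPM with SNORA73 LNA in total RNA, and vascular smooth muscle genes to 34.3 to 46.9 and 38.2 to 63.9 CPM. Mesothelial genes, of which 1 of 7 passed the filter on low counts, summed to 1.71 to 2.63 and 1.08 to 2.74 CPM in total RNA. Kupffer cell genes summed to 177 to 289 and 174 to 312 CPM, cholangiocyte genes to 18.4 to 35.0 and 12.6 to 54.9 CPM, lymphocyte genes to 2.34 to 3.81 and 2.03 to 3.14 CPM, and hepatocyte genes to 50100 to 75800 and 49500 to 78500 CPM. In these lists other than the endothelial one, 0 genes passed the test between the LNAs in either RNA. The part of the endothelial difference in the values of the stellate and matrix genes was not tested.

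The second question was how the level of each messenger in polysome RNA compared with its level in total RNA. Each library was scaled to a common total, so this ratio is relative to the other genes. It does not give the share of a messenger that was in polysomes. Lrat, Reln, Dcn and Col3a1 were lower in polysome than in total RNA with either LNA, and Ecm1 was higher. In the fit of all 20 libraries without a term for the mouse, 4 of 10 genes were lower and 1 of 10 higher in the GFP LNA mice, against 21.0% of 13795 genes lower and 21.8% higher in the background. In the SNORA73 LNA mice 4 of 10 were lower and 1 of 10 higher, beside 18.2% and 19.7% of all genes. Both libraries of a pair came from the same mouse, and once each mouse entered the model as a replicate block Col1a1 and Col1a2 were also lower, which made 6 of 10 lower and 1 of 10 higher with each LNA. The background under the block was 27.2% lower and 28.9% higher with GFP LNA and 25.1% and 26.0% with SNORA73 LNA. The median log2 ratio of the 10 genes was -0.60 in GFP LNA and -0.53 in SNORA73 LNA mice, beside 0.03 and 0.02 over all genes tested.

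Lrat had 2.78, 3.16, 4.06, 4.95 and 3.52 CPM in polysome RNA of GFP LNA mice 1, 2, 3, 8 and 9, and 3.13, 5.51, 2.63, 1.94 and 3.80 CPM in that of SNORA73 LNA mice 4, 6, 10, 11 and 12. With GFP LNA all 5 values lay below the total RNA values given above, and with SNORA73 LNA only mouse 6 reached above the lowest of them. Its log2 ratio of polysome to total RNA was -1.28 (SE 0.25, adjusted p = 0.000386) with GFP LNA and -1.40 (SE 0.26, adjusted p = 0.000231) with SNORA73 LNA. Within single mice the ratio ran from -2.24 to -0.50, and it was below 0 in 10 of 10 mice.

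For Reln, polysome RNA held 14.1, 11, 13.3, 15.3 and 18.1 CPM with GFP LNA and 13.7, 16, 10.9, 17.7 and 10.7 CPM with SNORA73 LNA. All 5 values with GFP LNA were below every total RNA value of that group, and with SNORA73 LNA mice 6 and 11 lay at or above the lowest total RNA value. The log2 ratios were -0.86 (SE 0.16, adjusted p = 0.000223) and -0.72 (SE 0.16, adjusted p = 0.00139), and 10 of 10 mice showed the direction.

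Ecm1 went the other way from the stellate cell markers above. It measured 68.4, 59.8, 69.4, 55.5 and 70.7 CPM in total RNA of the GFP LNA mice and 112, 106, 113, 115 and 149 CPM in their polysome RNA. In the SNORA73 LNA mice it was 67.8, 65.6, 44.9, 77.7 and 64.1 CPM in total RNA and 93.1, 84.7, 80.1, 179 and 141 CPM in polysome RNA. Every polysome value was above every total RNA value, with a log2 ratio of 0.88 (SE 0.19, adjusted p = 0.000994) with GFP LNA and 0.85 (SE 0.19, adjusted p = 0.00142) with SNORA73 LNA. Des and Pdgfrb did not pass the test with either LNA, with or without the block. The log2 ratio of Des was -0.33 (SE 0.24) with GFP LNA and 0.01 (SE 0.24) with SNORA73 LNA, from 17 to 102 counts per library. For Pdgfrb the log2 ratio was -0.26 (SE 0.22) and -0.30 (SE 0.23), and the level in polysome RNA was the lower one in 10 of 10 mice.

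Among the matrix genes, Col3a1 had the lowest ratio. Its polysome RNA measured 3.77, 2.05, 8.53, 6.04 and 9.56 CPM in the GFP LNA mice and 7.01, 6.24, 2.63, 4.58 and 3.58 CPM in the SNORA73 LNA mice. The polysome values of the SNORA73 LNA mice were all below their total RNA values, while with GFP LNA both ranges overlapped. The log2 ratio was -1.44 (SE 0.37, adjusted p = 0.00344) with GFP LNA and -1.30 (SE 0.38, adjusted p = 0.00931) with SNORA73 LNA, and within single mice it ran from -2.40 to -0.99.

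Dcn measured 175, 185, 174, 165 and 214 CPM in total RNA and 107, 102, 106, 122 and 149 CPM in polysome RNA of the GFP LNA mice. With SNORA73 LNA it was 179, 139, 148, 221 and 173 CPM in total RNA and 107, 149, 120, 156 and 120 CPM in polysome RNA. The ranges were apart with GFP LNA and overlapped with SNORA73 LNA, where mouse 6 was the only one with more in polysome RNA. The log2 ratio was -0.64 (SE 0.14, adjusted p = 0.00104) with GFP LNA and -0.40 (SE 0.14, adjusted p = 0.0300) with SNORA73 LNA. The latter call was lost without mouse 4 (-0.32, adjusted p = 0.131) or without mouse 12 (-0.37, adjusted p = 0.0996).

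The type I collagen chains were lower in polysome RNA in 10 of 10 mice, and whether they passed the test turned on the block. Col1a1 in polysome RNA was 2.16, 1.07, 3.93, 2.19 and 5.26 CPM with GFP LNA and 3.07, 3.24, 2.19, 1.83 and 0.645 CPM with SNORA73 LNA. Its ranges in total and polysome RNA overlapped in both groups. Without the block the log2 ratio was -1.02 (SE 0.46, adjusted p = 0.0804) with GFP LNA and -0.69 (SE 0.48, adjusted p = 0.270) with SNORA73 LNA. With the replicate block it was -1.0 (adjusted p = 0.000167) and -0.72 (adjusted p = 0.00419). DESeq2 without a block called it with GFP LNA (-1.04, adjusted p = 0.0436). For Col1a2 the log2 ratio was -0.56 (SE 0.30, adjusted p = 0.140) and -0.65 (SE 0.31, adjusted p = 0.105) without the block and -0.58 (adjusted p = 0.00632) and -0.69 (adjusted p = 0.00350) with it. Col14a1 had a log2 ratio of -0.18 (SE 0.20) with GFP LNA and -0.08 (SE 0.20) with SNORA73 LNA, was lower in polysome RNA in 8 of 10 mice, and did not pass with or without the block.

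**Figure D3:**
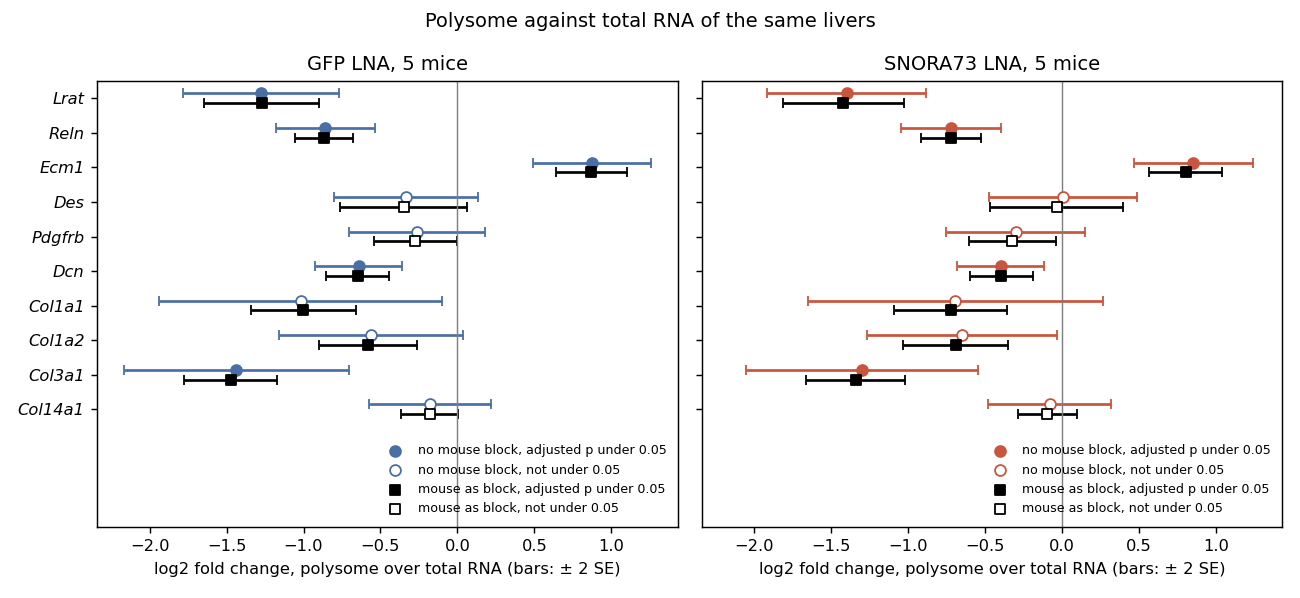
Log2 fold change of polysome over total RNA (horizontal axis, bars of 2 SE) for each gene with GFP LNA (left) and SNORA73 LNA (right), without the mouse block (circles) and with it (black squares), filled where the adjusted p was under 0.05. Lrat, Reln, Dcn and Col3a1 lie left of 0 and Ecm1 right of 0 under both models, and Col1a1 and Col1a2 are filled only with the block.

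The third question was whether the SNORA73 LNA changed this ratio. The interaction of RNA and LNA passed the test for 0 of 10 genes, without the block (adjusted p = 0.9999 for each) or with it (lowest adjusted p = 0.675, for Dcn), and for 0.00725% of all genes in either model. No gene of the 10 had an unadjusted p under 0.05 in either model with all mice. With the block and without mice 9 and 10 the change for Col3a1 was 0.41 (unadjusted p = 0.0251, adjusted p = 0.677 by edgeR), against 0.13 with all mice. The change of the log2 ratio ranged from -0.12 for Lrat to 0.34 for Des. Its interval of 2 SE ran from -0.84 to 0.59 for Lrat, from -0.16 to 0.64 for Dcn, from -0.91 to 1.18 for Col3a1 and from -1.0 to 1.65 for Col1a1.

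Other genes of the stellate cell and its pathways moved between total and polysome RNA in both directions. Of 17 other quiescent markers, 3 were higher and 3 lower in polysome RNA with GFP LNA, and 5 higher and 2 lower with SNORA73 LNA. Nt5e, which encodes the ecto-nucleotidase CD73, had log2 ratios of -1.12 and -1.33, and Rgs5, a regulator of G protein signalling in pericytes, -1.0 and -0.99. Of 19 genes of activated stellate cells, 1 was higher and 4 lower with GFP LNA and 1 higher and 3 lower with SNORA73 LNA. Lum, which encodes the collagen-binding proteoglycan lumican, had log2 ratios of -1.72 and -1.57 and Postn, which encodes periostin, -1.09 and -0.97, whereas the calcium-binding protein gene S100a6 had 1.32 and 1.26. Each pair of values gives GFP LNA first and SNORA73 LNA second, and the shares of all genes lower and higher are those given above.

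The receptors and regulators of the TGF-beta pathway, which drives collagen synthesis in stellate cells, were more often lower than higher. With GFP LNA 2 of 16 were higher and 5 of 16 lower, and with SNORA73 LNA 0 of 16 and 7 of 16. The receptor genes Tgfbr1 (log2 ratios of -1.64 and -1.23) and Tgfbr3 (-1.23 and -1.23) and the SMAD corepressor gene Skil (-1.44 and -1.55) were lower with either LNA. In the PDGF pathway 2 of 5 genes were lower and 0 of 5 higher with either LNA, namely the ligand gene Pdgfc (-0.99 and -1.06) and the receptor gene Pdgfra (-0.97 and -0.91). Of 13 genes of retinoid handling, 5 were higher and 3 lower with GFP LNA and 3 higher and 3 lower with SNORA73 LNA. Rdh10, which oxidises retinol, had log2 ratios of -0.68 and -0.75.

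Of 15 other collagen chains, 1 was higher (Col18a1, 0.33) and 1 lower (Col5a2, -0.89) with GFP LNA, and 2 were higher (Col27a1, 1.08, and Col5a3, 0.86) and 0 lower with SNORA73 LNA. Of 18 genes of collagen maturation and cross-linking, Plod3 was higher (0.47) and Loxl2 lower (-0.89) with GFP LNA, and 1 of 18, Colgalt1, was lower (-0.32) with SNORA73 LNA. In the lists of other cell types, 1 of 9 portal fibroblast genes was higher and 2 lower with GFP LNA and 0 higher and 2 lower with SNORA73 LNA, among them Dpt (-1.52 and -1.64). Of 10 sinusoidal endothelial genes 1 was higher with either LNA, and 5 and 4 were lower. Of 8 hepatocyte genes 2 were higher and 1 lower with either LNA, 1 of 2 mesothelial genes was lower with either LNA, and 1 of 9 Kupffer cell genes was higher with either LNA. None of 5 vascular smooth muscle genes and none of 5 cholangiocyte genes passed, and 1 of 6 and 0 of 6 lymphocyte genes were higher.

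Among the 10 genes, Col1a1, Col3a1 and Col1a2 had the largest spread among mice. Col1a1 in total RNA ranged 6.75-fold, from 1.48 CPM (41 counts) in mouse 12 to 9.98 CPM in mouse 9, and its SD on the log2 scale over the 10 mice, 0.87, was larger than that of 97.7% of genes tested. Col3a1 ranged 3.69-fold in total RNA and Col1a2 2.86-fold, with SDs above those of 92.8% and 85.0% of genes, while Col14a1 ranged 2.01-fold (above 65.0% of genes), less than Lrat (above 77.1%). The median gene ranged 1.73-fold in total RNA. The stellate cell markers ranged from 1.58-fold for Des to 2.25-fold for Lrat, and Dcn 1.59-fold, so these genes varied less among the mice than the 3 fibrillar collagen genes did, a description of the levels with no test. In polysome RNA Col1a1 ranged 8.15-fold, from 0.645 CPM (9 counts) in mouse 12 to 5.26 CPM in mouse 9, where the median gene ranged 2.18-fold and Col14a1 1.96-fold.

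Mice that had more of one collagen messenger in total RNA had more of the others. Over the 10 mice, all 6 pairs among Col1a1, Col1a2, Col3a1 and Col14a1 correlated, with Pearson's r between 0.899 and 0.960 and Spearman's rho between 0.915 and 0.988. By two-sided permutation tests the adjusted p was at most 0.00500 for r and 0.00687 for rho, over 100 relations among the 10 genes. Without the 2 mice farthest from the median of the first gene, r was 0.778 to 0.970, and after the mean of each LNA group had been taken off it was 0.901 to 0.959. Col1a1 with Col3a1 gave r of 0.960 (adjusted p = 0.00175) and rho of 0.988 (adjusted p = 0.00133), with r of 0.970 without the 2 extreme mice. Of the other 39 pairs in total RNA, 0 passed by both r and rho, and the highest r was 0.852 for Reln with Ecm1 (adjusted p = 0.0424, rho of 0.721 with adjusted p = 0.133), which fell to 0.595 without the 2 extreme mice.

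In polysome RNA the pairing of the collagen genes was looser. Their r was 0.480 to 0.861 and rho 0.479 to 0.879, and 0 of 6 pairs passed by both measures. Whether this differs from total RNA was not tested, and the counts behind the values were lower, down to 9 for Col1a1. The lowest r was that of Col1a2 with Col14a1, and SNORA73 LNA mouse 11 held 2.85 CPM of Col1a2, the lowest of all, and 20.9 CPM of Col14a1, the highest of its group. Between the libraries of a mouse, total and polysome levels correlated past the threshold by both measures for 2 of 10 genes, Pdgfrb (r of 0.951 and rho of 0.976, adjusted p = 0.00150 and 0.00133) and Col1a1 (r of 0.907 and rho of 0.915, adjusted p = 0.00300 and 0.00687). These r were 0.915 and 0.797 without the 2 extreme mice. The lowest r was 0.206 for Dcn.

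**Figure D4:**
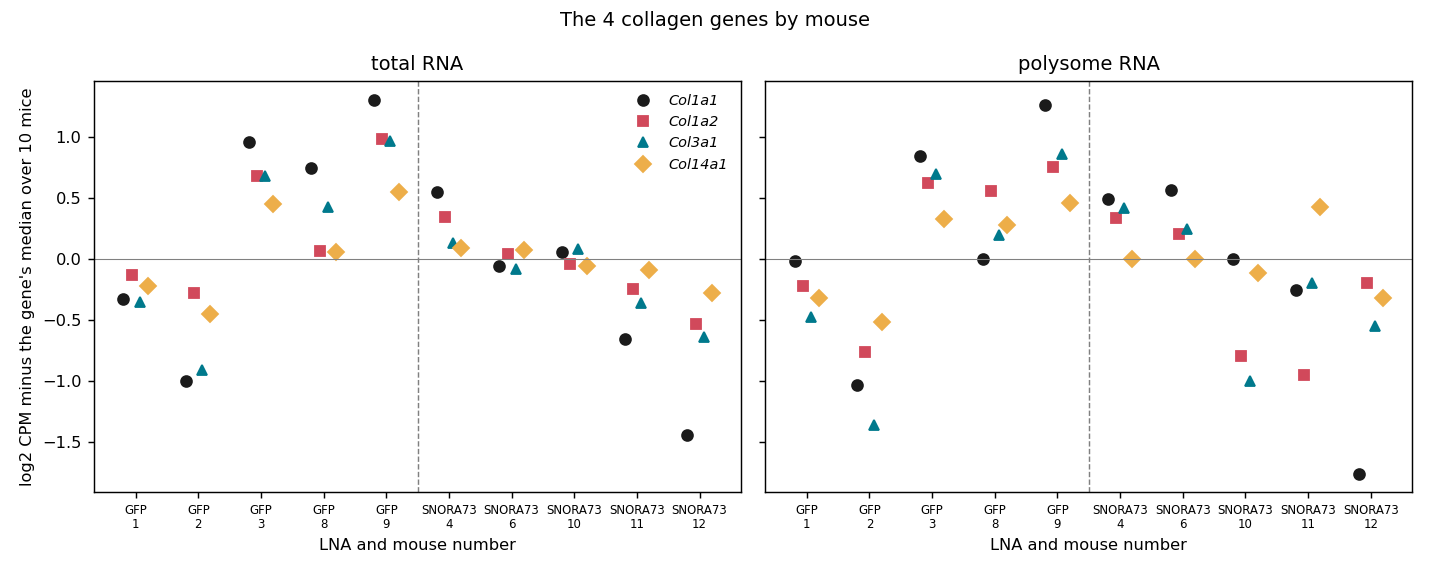
Levels of Col1a1, Col1a2, Col3a1 and Col14a1 in each mouse, as log2 CPM minus the median of that gene over 10 mice (vertical axis), in total RNA (left) and polysome RNA (right), with GFP LNA mice left of the dashed line. In total RNA the 4 genes are high together in GFP LNA mice 3 and 9 and low together in mice 2 (GFP LNA) and 12 (SNORA73 LNA).

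The sums of the lists were set beside the collagen levels of single mice. Mouse 9, at the top for each of the 4 collagen genes in total RNA, had 20 CPM of the portal fibroblast genes there, against 26.5 CPM in mouse 8, the highest. Mice 8 and 4, with the highest portal fibroblast sums (26.5 and 24.9 CPM), measured 6.78 and 5.91 CPM of Col1a1 in total RNA. These levels were below those of mice 9 and 3 (9.98 and 7.86 CPM) and above those of the other mice. Mouse 9 also had the highest sum of the PDGF pathway in total RNA, 34.6 CPM against 14.9 to 23.3 CPM in the other 9 mice, the highest levels of Reln and Des, and the lowest sum of hepatocyte genes of its group, 50100 CPM. Its sum of the TGF-beta pathway in total RNA, 136 CPM, was the highest as well, against 106 to 125 CPM in the other mice. So was its sum of lymphocyte genes, 3.81 CPM. Its sum of the quiescent stellate cell list, 615 CPM, was the highest of the GFP LNA mice. Mouse 12, with the lowest Col1a1 and Col1a2 in total RNA, had 22.0 CPM of the portal fibroblast genes and 73100 CPM of the hepatocyte genes. Their part in the collagen levels was not tested.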

How the data were processed

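Total and polysome RNA of 10 livers was sequenced as paired reads. The deposited values are estimated counts per Ensembl gene: the authors trimmed reads with fastp, discarded rRNA reads found by bowtie, quantified transcripts with kallisto (mouse, GRCm38 per the labels) and summed them to genes with tximport, without normalization. Because kallisto divides reads among similar transcripts, counts of overlapping genes are uncertain. Here counts were rounded, and 51903 of 53028 genes could be given a symbol. Genes were kept where 4 or more libraries of a fit had a CPM above 0.5 and were tested with edgeR 4.0.16 (glmQLFit and glmQLFTest, TMM) in R 4.3.3, with Benjamini-Hochberg adjustment over all genes tested and a call at an adjusted p under 0.05. Total and polysome RNA were fitted apart for SNORA73 against GFP LNA, and all 20 libraries together for polysome against total RNA and the interaction. The SE is the size of the log2 fold change divided by the square root of the F statistic. Alternatives were limma-voom (limma 3.58.1), DESeq2 1.42.0, its size factors, library totals, no filter, a minimum fold for higher genes, 1 fit of all libraries, each mouse left out, mice 9 and 10 left out, and the mouse as replicate block. The block with mice 9 and 10 left out was added after the data had been seen.

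The mouse number comes from the labels and marks the 2 libraries of 1 liver. The deviations of these libraries from their group means correlated at 0.126 to 0.579 in each of 10 mice. Correlations over mice used log2(CPM + 0.1) and 100000 permutations, which can give no p under 1e-05. The genes named are the 10 genes in every comparison and, from each stellate or pathway list, up to 4 genes past the threshold with the largest log2 fold change. For the lists of other cell types the summed CPM is given, with Stab2 and Dpt as genes past the threshold. Acta2, Timp1, Fn1 and Steap4 were named after their values were seen. The 10 genes and the lists were chosen with earlier results of these data known. Each mouse was 1 animal, and the tests between the LNAs in each RNA measure the spread between animals. For polysome over total RNA and the interaction, the fit without the block treats both libraries of a mouse as independent. With the block, these tests measure the spread of the ratio between mice. The scripts were tested on simulated data. The precision of a low value is limited by its counts.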

Additional observations from a re-analysis of the deposited data

Results flagged for a closer look

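Ecm1 in polysome RNA of the GFP LNA mice was 149 CPM in mouse 9, while the other 4 mice of the group lay between 106 and 115 CPM. The gap of mouse 9 to the nearest mouse was 0.784 of the range of the group, above Dixon's critical value of 0.71 for 5 samples. This was 1 of 40 groups examined (10 genes in 4 groups of libraries), and chance flags about 5% of groups. Without mice 9 and 10 the log2 ratio of Ecm1 in polysome over total RNA with GFP LNA was 0.79 (adjusted p = 0.00246, edgeR's quasi-likelihood test), against 0.88 with all mice.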

How the results depend on the processing

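Between the LNAs, 0 of the 10 genes were called in total RNA, in polysome RNA or in the interaction under each alternative that was run. Of the genes in polysome over total RNA, 5 to 7 were called with GFP LNA and 4 to 7 with SNORA73 LNA. The mouse number pairs total with polysome libraries and no mouse had both LNAs, so the replicate block was fitted for polysome over total RNA and the interaction, where it called 7, 7 and 0 of 10. Beside the type I collagen calls given above it changed no call of these genes. The block without mice 9 and 10 kept the added calls of Col1a1 (-1.05 with GFP LNA, adjusted p = 0.00138, and -0.68 with SNORA73 LNA, adjusted p = 0.0265) and Col1a2 (-0.56, adjusted p = 0.0222, and -0.57, adjusted p = 0.0286).

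The values that changed sign were uncalled, and the cause was not tested. All but 1 ranged from -0.12 to 0.15 with all mice, the exception being Col3a1 in polysome RNA at -0.32. SNORA73 against GFP LNA in total RNA turned for Lrat with limma-voom (-0.0205), library totals (-0.13) and no filter (-0.0112), for Pdgfrb with library totals (-0.0578), and without mice 9 and 10 for Ecm1 (0.12), Des (0.000791), Pdgfrb (-0.0174) and Dcn (0.0266). In polysome RNA it turned with library totals for Pdgfrb (-0.12) and Dcn (-0.0023), and without mice 9 and 10 for Reln (0.12), Ecm1 (0.16), Pdgfrb (-0.13), Col3a1 (0.0656) and Col14a1 (0.0593). The ratio of Des with SNORA73 LNA turned with limma-voom (-0.0398), DESeq2's size factors (-0.0043), no filter (-0.0068), the replicate block (-0.0343), without mice 9 and 10 (-0.0365) and with both changes (-0.0928). In the interaction Ecm1 turned without mice 9 and 10 (0.0564) and Pdgfrb with limma-voom (0.0123).

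With 1 mouse left out, the log2 fold change between the LNAs in total RNA ranged from -0.13 to 0.15 for Lrat, from -0.10 to 0.0833 for Ecm1 and from -0.0219 to 0.20 for Pdgfrb. In polysome RNA it ranged from -0.37 to 0.04 for Lrat, from -0.15 to 0.0451 for Reln, from -0.24 to 0.0727 for Ecm1, from -0.11 to 0.21 for Pdgfrb and from -0.20 to 0.0283 for Col14a1. The ratio of Des with SNORA73 LNA ranged from -0.18 to 0.12. The interaction ranged from -0.30 to 0.031 for Lrat, from -0.16 to 0.0803 for Ecm1, from -0.0885 to 0.0034 for Pdgfrb, from -0.19 to 0.0497 for Col1a2 and from -0.0362 to 0.16 for Col14a1. The lowest libraries held 9 counts of Col1a1, 17 of Des and 26 of Pdgfrb, which limits the precision for these genes.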
